A study of Arabidopsis thaliana with 12 samples.

Results

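The genotype by 3B7N interaction is the difference between the response of cry1cry2 seedlings of Arabidopsis thaliana to 3-bromo-7-nitroindazole (3B7N) and the response of wild-type seedlings to the same chemical. It was taken over all 12 of the 12 arrays of the series, as the log2 change with 3B7N in the mutant minus the log2 change with 3B7N in wild type. The 4 groups were wild type Col-0 on dimethyl sulfoxide (DMSO, the solvent control), wild type on 3B7N, cry1cry2 on DMSO and cry1cry2 on 3B7N, with 3 arrays in each. 3B7N was present in the medium at 15 µM from sowing. All groups shared 3 days in the dark at 4 °C and then 4 days of continuous blue light at 5 µmol m-2 s-1, and seedlings were 4 days old at harvest. The labels give no allele for the double mutant, and light was not varied between groups. They do not say that the replicates came from separate cultures, so the p-values measure the spread between these samples, which may be technical.

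Cryptochromes CRY1 and CRY2 are the main blue light receptors that stop hypocotyl growth in seedlings. In the light they hold back the ubiquitin ligase of COP1 and SPA proteins, so that transcription factors such as HY5 and HYH accumulate, and they act against the growth-promoting PIF transcription factors. BIC1 and BIC2 are light-induced inhibitors of the cryptochromes themselves, and nitroindazoles are known as inhibitors of animal nitric oxide synthases.

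Each value here is a scaled log2 signal, the log2 of the processed fluorescence of a probe minus that of the 75th percentile of its array, so that 0 is the brightness of the 75th percentile. The 75th percentiles ran from 882.6 on wild-type 3B7N array 2 to 6794 on cry1cry2 DMSO array 1, and 64.4% to 81.2% of probes were well above background. Arrays of 1 group correlated at 0.979 to 0.993 over genes. CRY1 read 3.25 to 3.86 on the wild-type arrays and -9.85 to -7.73 on the mutant arrays, and CRY2 read 1.85 to 2.48 and -8.94 to -8.59, which matches the labelled genotypes. Markers of green shoots averaged 3.82 to 6.099 and markers of roots -0.68 to 0.45, so RNA of both organs was present on every array, and the shoot markers were lower on the mutant arrays. In RNA from whole seedlings, fewer cells of a type and less RNA per cell cannot be told apart. The arrays lay on 3 slides, and no slide held all groups. Slide 1 held the 3 wild-type DMSO arrays and wild-type 3B7N array 1, slide 2 held wild-type 3B7N arrays 2 and 3 with cry1cry2 DMSO arrays 1 and 2, and slide 3 held cry1cry2 DMSO array 3 with the 3 cry1cry2 3B7N arrays. A fit with slide as a block therefore compares the wild-type response within slide 1 with the mutant response within slide 3, and its value is given below as the within-slide value. Each of these responses rests on a single array in 1 arm, wild-type 3B7N array 1 and cry1cry2 DMSO array 3.

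The response to 3B7N differed between the genotypes for a large share of the genes. Of 20487 genes tested with limma, 3813 (18.6%) passed an adjusted p under 0.05 with a difference of at least 1 on the log2 scale. The response of 2602 genes (12.7%) was higher in cry1cry2 than in wild type, and that of 1211 genes (5.91%) was lower. In the separate responses 3070 genes (15%) were called in wild type, 1207 higher (5.89%) and 1863 lower (9.09%). In cry1cry2 765 genes (3.73%) were called, 431 higher (2.1%) and 334 lower (1.63%). The median interaction over all genes was 0.073, from a median wild-type response of -0.055 and a median mutant response of 0.037. The standard deviation over genes was 0.853 for the wild-type response and 0.52 for the mutant response.

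In both directions the largest class was genes called in wild type and not in the mutant, 49.6% of the higher and 59.8% of the lower calls. These classes follow in part from construction, because the interaction is the difference between both responses. Among the 2602 genes with a higher response in cry1cry2, 1291 fell in wild type without a call in the mutant, 84 fell in wild type and rose in the mutant, and 125 rose in the mutant alone. A further 32 rose in both genotypes, 10 fell in both, and 1060 were called in neither response. Among the 1211 genes with a lower response in cry1cry2, 724 rose in wild type without a call in the mutant, 33 rose in wild type and fell in the mutant, and 90 fell in the mutant alone. In that set 11 rose in both, 4 fell in both and 349 were called in neither. The 2602 genes had a median response of -1.03 in wild type and 0.44 in cry1cry2, and the 1211 genes had 1.24 and -0.34. The mutant on DMSO stood at a median of -1.15 against wild type on DMSO over the first set and at 1.27 over the second. On 3B7N these medians were 0.31 and -0.33, and all 4 differences share arrays.

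**Figure D1:**
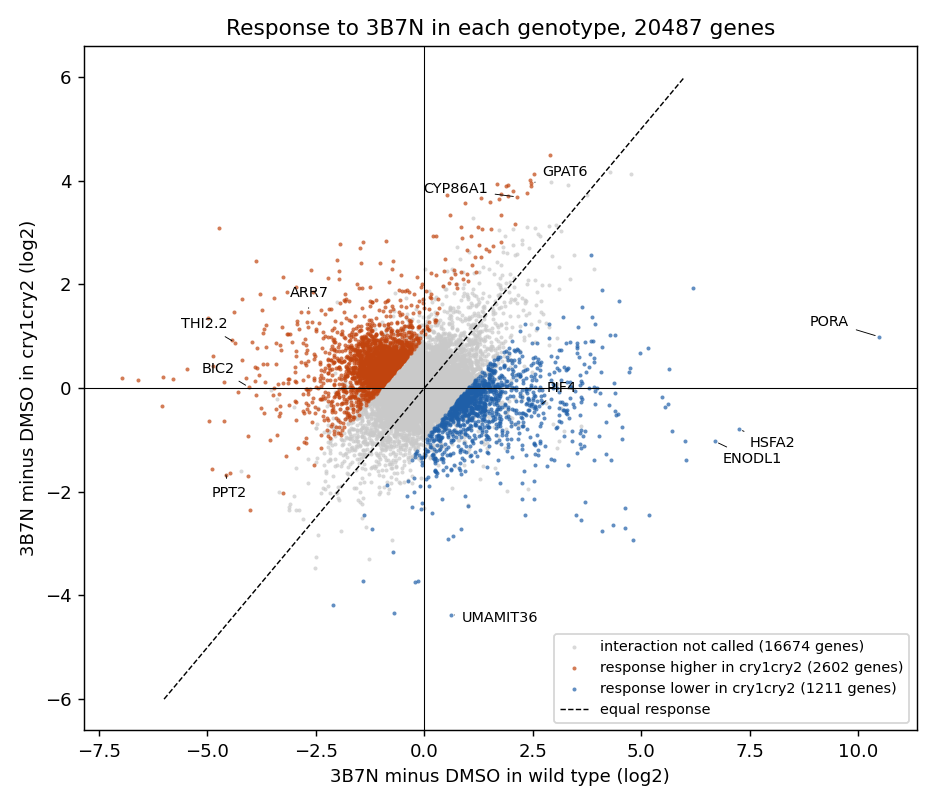
Response to 3B7N (3B7N minus DMSO, log2) in wild type on the horizontal axis and in cry1cry2 on the vertical axis for the 20487 genes tested; each point is 1 gene and the dashed line marks an equal response. The 2602 genes with a higher response in cry1cry2 lie above the line, mostly at negative wild-type values, and the 1211 with a lower response lie below it, mostly at positive ones.

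Dim genes held a large part of the higher calls. With the genes split into 4 equal bins by mean signal, 1044 genes (20.4%) of the dimmest bin had a higher response in cry1cry2, against 694, 461 and 403 (7.87%) in the next 3 bins, while lower responses took 355, 250, 261 and 345 genes. Normexp models the local background in place of the subtraction in the processed signal, and adds an offset of 50. The offset narrows the log2 differences of dim genes before the arrays are scaled. With normexp, the higher calls in the 4 bins were 20, 299, 417 and 433 and the lower calls 142, 220, 219 and 274. The median interaction of the dimmest bin was 0.31 with the processed signal and -0.59 with normexp. The cause of this change of sign was not tested. Over all genes normexp called 1169 higher and 856 lower, called 1938 (50.8%) of the 3813 genes again and gave 436 of them the other sign. The share of higher calls was 68.2%, and it was 57.7% with normexp and 56.5% with arrays scaled to their median. Median scaling moved the median interaction from 0.073 to -0.066 and normexp moved it to -0.145, so a list median is to be read against these. None of the 3813 genes changed sign under median or quantile scaling or with the slide block, and the slide block called 2109 (55.3%) of them again.

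**Figure D2:**
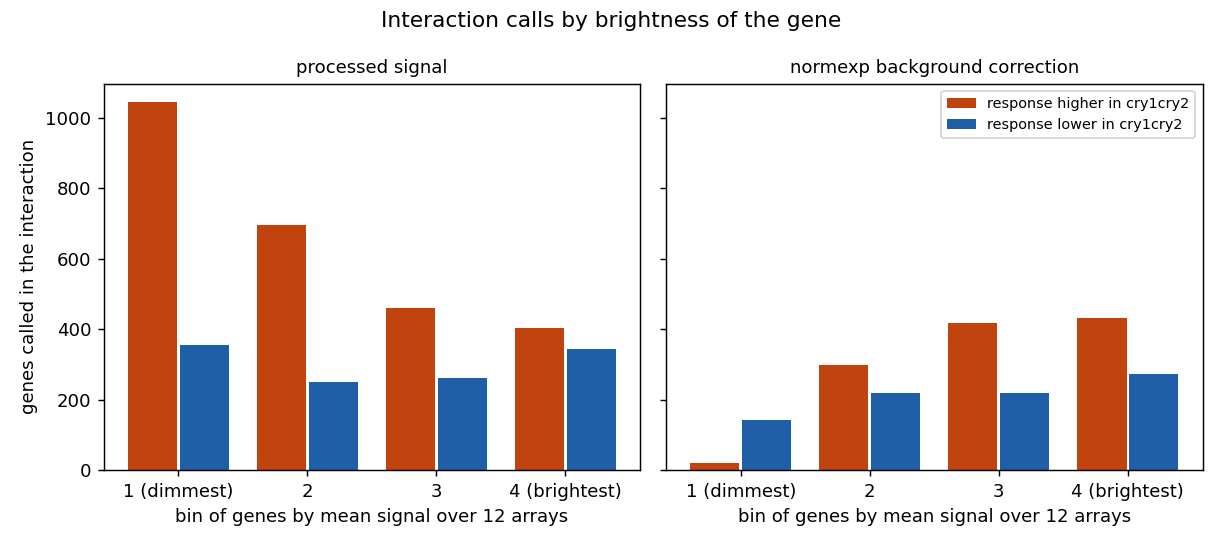
Genes called in the interaction (vertical axis, count) in each of 4 equal bins of the tested genes by mean signal over the 12 arrays, with the processed signal on the left and with normexp background correction on the right. In the dimmest bin the higher calls number 1044 on the left and 20 on the right, while in the brightest bin they number 403 and 433.

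In 2381 of the higher calls and 1078 of the lower calls the probe was well above background on at least 2 arrays of every group. In 110 and 101 it was not well above background on any array of at least 1 group. There the fitted interaction is neither a measured difference nor a bound, and for those named below the wild-type change is given as a bound, set against the lowest signal above background on the dim arrays. Genes also measured by further probes gave 1191 extra probes over 958 genes, of which 1172 (98.4%) had the sign of the probe used. In the lists below, up to 3 called members with the smallest adjusted p were named by rule, and other called members were named after their values were seen.

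The inhibitors BIC1 and BIC2 were among the cryptochrome outputs with a higher response in cry1cry2. Of 22 regulators that act with the cryptochromes or are set by them, 5 had a higher response in the mutant and 2 a lower one, with a median interaction of 0.56 against 0.073 over all genes and a within-slide median of 0.42. Calls made up 31.8% of this list, against 18.6% of all genes. The 5 were BBX32, BIC2, BIC1, HYH and RUP2, and BBX32, BIC1, HYH and RUP2 kept their calls under every alternative setting. BIC1 (AT3G52740) read 1.82, 1.95 and 2.01 in wild type with DMSO and -0.63, -1.09 and -0.55 with 3B7N. In cry1cry2 it read -2.48, -2.89 and -2.302 on DMSO and -2.23, -2.504 and -2.24 on 3B7N. The wild-type arrays separated with lower values on 3B7N, and the mutant arrays overlapped at a level below all wild-type arrays. The response was -2.68 in wild type and 0.23 in cry1cry2, an interaction of 2.92 (SE 0.26, limma adjusted p = 3.95e-05), and 2.54 within slides. BIC2 (AT3G44450), its paralogue, showed the same order of groups, with -1.897, -1.92 and -1.31 and then -5.66, -5.82 and -5.801 in wild type. Its mutant arrays read -6.49, -7.03 and -6.23 on DMSO and -6.603, -6.61 and -6.48 on 3B7N, close to background. The interaction of BIC2 was 4.07 (SE 0.298, limma adjusted p = 1.15e-05), and with normexp it was 1.65 and not called (adjusted p = 0.231).

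HYH (AT3G17609), a bZIP factor that acts beside HY5, fell in wild type and read higher on every mutant 3B7N array than on any mutant DMSO array. Its wild-type arrays read 0.28, 0.18 and 0.55 on DMSO and -0.78, -1.22 and -0.97 with 3B7N. Its mutant arrays read -2.06, -2.54 and -1.87 on DMSO and -1.08, -1.36 and -1.36 on 3B7N, so the 3B7N groups of the genotypes overlapped. The interaction was 2.22 (SE 0.27, limma adjusted p = 0.000227). HY5 itself, the bZIP factor that promotes photomorphogenesis, was not called (0.93 (SE 0.46, limma adjusted p = 0.151)), and it was -0.28 within slides and 1.28 and called without wild-type 3B7N array 1. BBX32, a B-box protein that acts against HY5 activity, had an interaction of 4.23 (SE 0.53, limma adjusted p = 0.000263) from -2.94 in wild type and 1.295 in cry1cry2. RUP2, a repressor of the UV-B receptor pathway, had an interaction of 1.94 (SE 0.27, limma adjusted p = 0.000485) from -2.01 in wild type and -0.08 in cry1cry2. The 2 lower members were the B-box genes BBX28 (-1.13) and BBX21 (-1.04), and this count was 1 without wild-type DMSO array 3, wild-type 3B7N array 3 or cry1cry2 DMSO array 2, and 0 with the slide block. COP1 (0.44) and the 4 SPA genes (-0.02 to 0.95) were not called.

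Among 14 photoreceptor genes (21.4% called, against 18.6% of all genes, median -0.42, -0.14 within slides) PHYA and PHOT1 had a lower response in cry1cry2 and CRY3 a higher one. PHYA (AT1G09570), the phytochrome that acts in far-red and very weak light, read 3.34, 3.19 and 3.06 in wild type with DMSO and 5.16, 5.703 and 5.21 with 3B7N. The mutant arrays read 4.36, 4.801 and 4.75 on DMSO and 5.08, 4.78 and 4.84 on 3B7N. Wild type on 3B7N was thus above all other groups, and the mutant groups overlapped. The interaction was -1.899 (SE 0.25, limma adjusted p = 0.000397), with -1.81 within slides. CRY3, a cryptochrome of the DASH type found in organelles, read 1.29, 0.99 and 0.91 and then -0.35, -0.15 and -0.18 in wild type, and -1.23, -1.05 and -1.32 and then -0.56, -0.73 and -0.9 in cry1cry2. Its interaction was 1.76 (SE 0.21, limma adjusted p = 0.000184), from a fall in wild type and a mutant response of 0.47 that was not called. PHOT1, the phototropin of weak blue light, had an interaction of -1.07 (SE 0.19, limma adjusted p = 0.0018) and was under the size threshold without cry1cry2 DMSO array 3 (-0.99) or cry1cry2 3B7N array 1 (-0.99). CRY1 (0.703) and CRY2 (-0.56) were not called, on mutant signals at or near background, and CRY1 passed at 1.17 without cry1cry2 DMSO array 3. The other phytochromes lay between -0.42 for PHYC and 0.18 for PHYE.

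**Figure D3:**
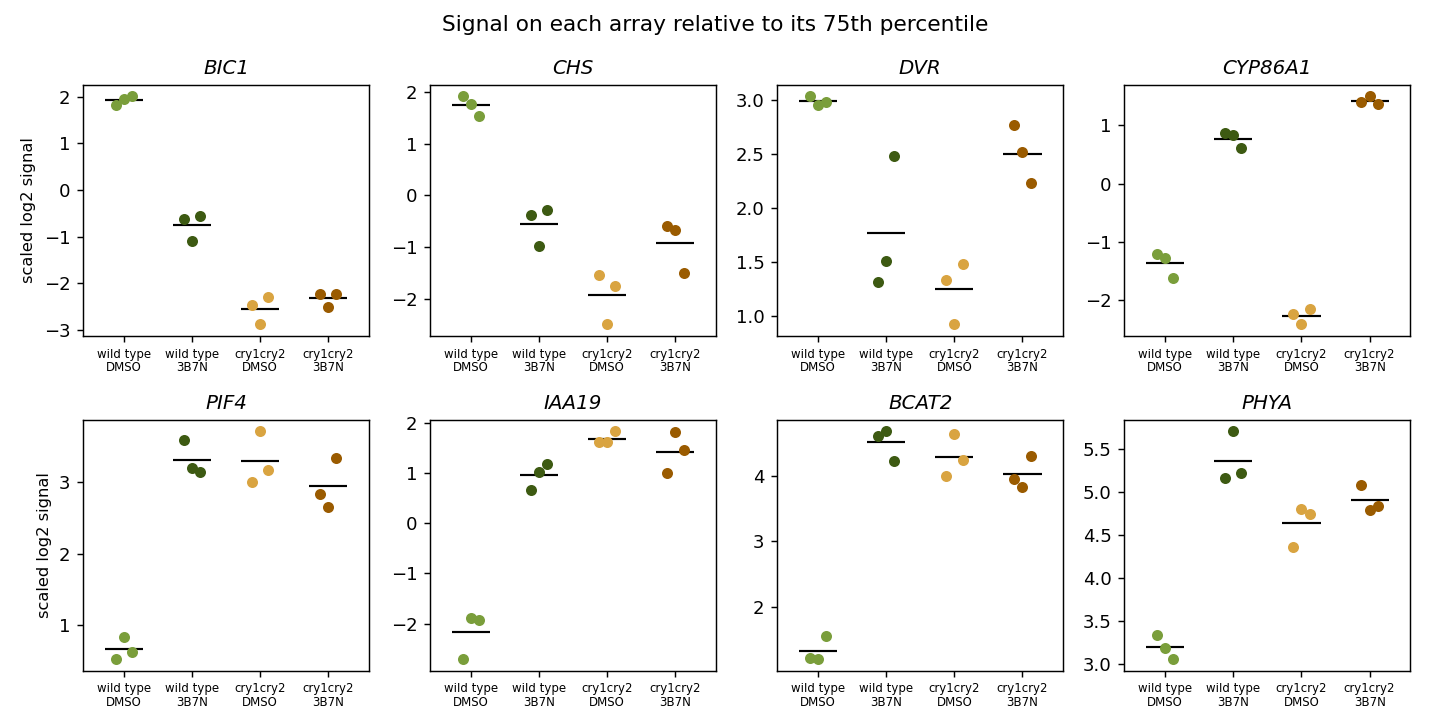
Scaled log2 signal (vertical axis, 0 is the 75th percentile of the array) of 8 genes on each of the 12 arrays; points are arrays and horizontal lines are group means over 3 arrays, with a separate vertical scale for each gene. For BIC1 and CHS the wild-type arrays drop with 3B7N, for PIF4, IAA19, BCAT2 and PHYA they rise, and DVR rises with 3B7N in cry1cry2 while CYP86A1 rises in both genotypes.

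PIF and shade genes had a lower response in cry1cry2 throughout the called members. Of 19 genes 10 were lower and 0 higher, against 5.91% and 12.7% of all genes, and the median interaction was -1.35 from median responses of 1.097 in wild type and -0.29 in the mutant. Counts of 9 to 11 lower and 0 higher were found with normexp, the slide block and both rescalings, and the within-slide median was -1.28. PIF4 (AT2G43010), a bHLH factor that drives hypocotyl growth, read 0.53, 0.84 and 0.62 in wild type with DMSO and 3.59, 3.202 and 3.15 with 3B7N. The mutant arrays read 3.01, 3.72 and 3.17 on DMSO and 2.84, 2.65 and 3.34 on 3B7N. Wild type on DMSO stood apart from the other 3 groups, which overlapped. The response was 2.65 in wild type and -0.35 in cry1cry2, an interaction of -2.999 (SE 0.32, limma adjusted p = 9.93e-05). PIF5, its close relative, had an interaction of -1.802 (SE 0.27, limma adjusted p = 0.000736), and PIF3 was at -1.01 while PIF1 (-0.54) and PIF7 (0.598) were not called.

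ST2A (AT5G07010), a sulfotransferase that acts on jasmonates, read -3.15, -2.92 and -3.197 in wild type with DMSO and 0.77, 0.3 and 0.64 with 3B7N. In cry1cry2 it read 0.26, 0.88 and 0.27 on DMSO and -0.99, 0.2 and -0.605 on 3B7N, with every treated array below every DMSO array. Its interaction was -4.59 (SE 0.39, limma adjusted p = 2.94e-05), although the mutant response of -0.93 was not called on its own. CKX5, which breaks down cytokinin, had an interaction of -2.09 (SE 0.21, limma adjusted p = 7.88e-05) from 2.598 in wild type and 0.505 in cry1cry2. The bHLH genes PRE5 (-3.39), PRE1 (-1.94) and PAR1 (-1.79) and the homeobox genes HB4 (-1.56) and HAT2 (-1.34) completed the called members. HFR1 (-0.29), HB-2 (-0.12) and HAT1 (0.18 within slides) were not called.

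Auxin genes followed the same direction. Of 22 genes 10 had a lower response in cry1cry2 and 1 a higher one, against 5.91% and 12.7% of all genes. The median interaction was -0.93 and the within-slide median -1.18. Median responses were 0.86 in wild type and 0.11 in the mutant. IAA19 (AT3G15540), an auxin-induced repressor of auxin response, read -2.71, -1.88 and -1.92 in wild type with DMSO and 0.67, 1.02 and 1.195 with 3B7N. Its mutant arrays read 1.62, 1.62 and 1.84 on DMSO and 1, 1.82 and 1.46 on 3B7N. The wild-type groups were apart by over 2 units, and the mutant groups overlapped each other. The interaction was -3.403 (SE 0.36, limma adjusted p = 9.82e-05). IAA6 (-4.83 (SE 0.45, limma adjusted p = 5.55e-05)) and IAA20 (-4.29 (SE 0.39, limma adjusted p = 4.4e-05)), of the same family, were larger, on wild-type DMSO signals between -6.63 and -4.12. GH3.3, which conjugates auxin to amino acids, was at -1.98 and IAA29 at -1.76. The higher member was YUC5 (2.39), an enzyme of auxin synthesis, and 2 genes were higher without wild-type DMSO array 3 or wild-type 3B7N array 1 and 0 with normexp or the slide block. YUC8 (-0.73), YUC9 (1.47) and the auxin carriers PIN3 (-0.57) and PIN7 (-0.83) were not called.

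Genes of cell wall expansion had 8 of 17 members with a lower response in cry1cry2 and 1 higher, against 5.91% and 12.7% of all genes. Their median was -1.18 and their within-slide median -0.91. XTH15 (AT4G14130), a xyloglucan-modifying enzyme, read 1.88, 2.18 and 1.68 in wild type with DMSO and 5.01, 6.11 and 5.47 with 3B7N, and 4.66, 5.19 and 4.76 and then 5.27, 4.88 and 4.88 in cry1cry2. Wild type on DMSO again stood below the other groups, which overlapped, and the interaction was -3.47 (SE 0.37, limma adjusted p = 1e-04). EXPA8, an expansin that loosens walls, rose in wild type and fell in cry1cry2, with responses of 1.06 and -1.304 and an interaction of -2.36 (SE 0.302, limma adjusted p = 0.000303). XTH17 (-3.81), XTH19 (-2.56), XTH30 (-1.35), XTH24 (-1.23), EXPA11 (-2.01) and EXPA5 (-1.26) were the other lower members. The expansin EXPA1 was the higher one (1.28), and 0 were higher without cry1cry2 3B7N array 2 and 2 without cry1cry2 3B7N array 3. With the slide block 5 were lower. The list holds part of its families, and all genes with such symbols, counted after the values were seen, were called in both directions. Of 27 XTH genes 6 were higher and 6 lower (median -0.28, 0.047 with the slide block), and of 18 EXPA genes 3 were higher and 5 lower (median 0.27).

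Of 18 gibberellin and brassinosteroid genes 6 had a lower response in cry1cry2 and 1 a higher one, against 5.91% and 12.7% of all genes. The median was -0.45, and it was -0.31 within slides. GA20OX1 (AT4G25420), which catalyses late steps of gibberellin synthesis, read -7.32, -6.86 and -7.03 in wild type with DMSO and -3.93, -4.09 and -2.98 with 3B7N, and -2.795, -2.99 and -2.24 and then -4.09, -3.01 and -4.004 in cry1cry2. The genotypes moved in opposite directions without overlap between DMSO and 3B7N, although the mutant response of -1.02 was not called, and the interaction was -4.43 (SE 0.49, limma adjusted p = 0.000122). GA20OX2 (-1.64), GA3OX1 (-1.29), the growth-repressing DELLA gene GAI (-1.404) and the brassinosteroid genes BAS1 (-1.07) and CPD (-1.01) were smaller, and GA3OX2 was the higher one (1.89). The lower count was 3 without cry1cry2 DMSO array 2 and 1 with the slide block, where GA20OX1 kept its call at -4.601 (adjusted p = 0.00431).

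Flavonoid genes had a higher response in cry1cry2. Of 23 genes of flavonoid and anthocyanin synthesis 11 were higher and 2 lower, against 12.7% and 5.91% of all genes. The median was 1.06, from median responses of -1.38 in wild type and 0.16 in the mutant. The within-slide median was 0.84 and the normexp median 0.33, with 8 higher in both. CHS (AT5G13930), chalcone synthase, the entry enzyme of the pathway, read 1.92, 1.77 and 1.53 in wild type with DMSO and -0.38, -0.98 and -0.28 with 3B7N. The mutant arrays read -1.55, -2.499 and -1.75 on DMSO and -0.59, -0.67 and -1.51 on 3B7N. Wild type dropped without overlap, the treated mutant arrays were above all mutant DMSO arrays, and the treated groups overlapped. The response was -2.28 in wild type and 1.01 in cry1cry2, of which the second was not called, and the interaction was 3.297 (SE 0.42, limma adjusted p = 0.000311). FLS1, flavonol synthase, read 0.799, 0.87 and 0.799 and then -1.37, -1.89 and -1.49 in wild type, and -1.76, -2.09 and -1.496 and then -1.57, -1.295 and -1.89 in cry1cry2. Its treated wild-type arrays overlapped both mutant groups, and its interaction was 2.604 (SE 0.28, limma adjusted p = 0.000108). TT7, flavonoid 3'-hydroxylase, was at 1.75 (SE 0.22, limma adjusted p = 0.000297).

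The other higher members were the ligase 4CL3 (3.24), F3H (2.28), the glycosyltransferases UGT78D2 (1.74) and UGT78D1 (1.49), the flavonol regulators MYB12 (1.64) and MYB111 (1.56), CHIL (1.21) and PAL2 (1.06). The 2 lower members belong to the anthocyanin branch. They were MYB75, a MYB factor that switches on anthocyanin synthesis, and TT19 (-1.201), a glutathione transferase needed to store anthocyanins. MYB75 was not well above background on any wild-type DMSO array, its wild-type rise was at least 2.05-fold, and its fitted interaction of -2.24 is not a measured difference. TT19 was dim, at -6.88 to -4.67, and the lower count was 0 without wild-type DMSO array 1 and 1 without any of 8 other arrays. The late genes DFR (-0.65) and LDOX (-0.51) were not called.

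Chlorophyll synthesis had 7 of 18 genes with a higher response in cry1cry2 and 1 with a lower one, against 12.7% and 5.91% of all genes. The median was 0.64 and the within-slide median 0.75. Here the median response was 0.60 in the mutant and -0.055 in wild type. DVR (AT5G18660), which reduces the 8-vinyl group of chlorophyll precursors, read 3.03, 2.95 and 2.98 in wild type with DMSO and 1.32, 1.51 and 2.48 with 3B7N. Its mutant arrays read 1.34, 0.92 and 1.49 on DMSO and 2.76, 2.51 and 2.23 on 3B7N. The gene fell in wild type, rose in cry1cry2, and had an interaction of 2.47 (SE 0.38, limma adjusted p = 0.000893). PORC, a light-stable protochlorophyllide oxidoreductase, read 2.41, 2.3 and 2.39 and then 1.66, 1.64 and 1.97 in wild type, and 0.896, 1.12 and 1.07 and then 2.32, 2.01 and 1.91 in the mutant. Its rise of 1.05 in the mutant was called, its wild-type change of -0.61 was under the size threshold, and the interaction was 1.66 (SE 0.205, limma adjusted p = 0.000245). CHLI1 (1.26) and CHLI2 (1.15) of magnesium chelatase, HEMA1 (1.06), GSA2 (1.101) and CHLG (1.03) were the other higher members. The count was 4 without cry1cry2 3B7N array 1, with the slide block or with median scaling, and 2 genes were lower without any of 6 arrays.

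PORA (AT5G54190), the protochlorophyllide oxidoreductase abundant in dark-grown seedlings, had the most negative fitted interaction of all genes tested. Its wild-type arrays read -8.58, -7.62 and -7.38 on DMSO, none of them well above background, and 2.31, 2.495 and 3.05 with 3B7N. The mutant arrays read 3.74, 3.14 and 3.97 on DMSO and 4.97, 4.67 and 4.19 on 3B7N, above the wild-type arrays in both conditions. The fitted interaction was -9.48 (SE 0.48, limma adjusted p = 1.23e-06), and against the lowest signal above background the wild-type rise on this probe was at least 771-fold, beside a mutant response of 0.99. Further probes of PORA gave smaller interactions, -6.62 on a probe that 2 of 3 wild-type DMSO arrays measured above background and -4.89 on one that none of them did. Their fitted wild-type rises were smaller too, at 7.59 and 5.78 on the log2 scale, against 10.48 on the probe used. The 771-fold bound is therefore one for the probe used and not for the gene. PORB, which works in dark and light, was at -0.97 and under the size threshold.

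Light harvesting and photosynthesis genes gave few calls, with 2 of 29 higher, 0 lower and a median of 0.062 (-0.078 with median scaling and 0.19 within slides). The 2 were LHCB4.3 (1.86 (SE 0.26, limma adjusted p = 0.000532)), an antenna protein of photosystem II, and PSBO2 (1.05 (SE 0.296, limma adjusted p = 0.021)), of the oxygen-evolving complex. PSBO2 was not called without wild-type 3B7N array 3, cry1cry2 DMSO array 1, cry1cry2 3B7N array 1 or cry1cry2 3B7N array 3. The count was 1 without each of the first 3 of these and 4 without cry1cry2 3B7N array 2, and 1 gene was lower without cry1cry2 DMSO array 1. With the mean of all probes of a gene 4 were higher. The share called was 6.9%, against 18.6% of all genes. Of the 7 green shoot markers GLDP1 (1.34), of photorespiration, and GAPB (1.003), of the Calvin cycle, were higher, and the summed signal of these markers overlapped between DMSO and 3B7N in both genotypes. GAPB lost its call without any of 6 arrays, among them wild-type DMSO array 2 (0.89) and cry1cry2 DMSO array 1 (0.85). Its 2 other probes gave 2.26 and 2.28, and with the mean of all probes of a gene 4 of the 7 markers were higher at a median of 1.24, against 0.52.

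Genes of darkness and sugar starvation had the largest share of calls among the lists. Of 9 genes 7 had a lower response in cry1cry2 and 0 a higher one, against 5.91% and 12.7% of all genes. The median was -1.71, from median responses of 1.59 in wild type and 0.01 in cry1cry2, with -1.76 within slides. BCAT2 (AT1G10070), which breaks down branched-chain amino acids, read 1.22, 1.2 and 1.55 in wild type with DMSO and 4.61, 4.68 and 4.23 with 3B7N. In the mutant it read 3.998, 4.64 and 4.24 on DMSO and 3.95, 3.83 and 4.31 on 3B7N. Wild type on DMSO stood below the other 3 groups, which overlapped, and the interaction was -3.44 (SE 0.28, limma adjusted p = 2.59e-05). BGLU30 (-1.89 (SE 0.25, limma adjusted p = 0.000397)), a beta-glucosidase known as a dark-inducible gene, and MCCA (-2.16 (SE 0.299, limma adjusted p = 0.000468)), of leucine breakdown, had the same pattern. ASN1 (-2.21), IVD (-1.71), SEN1 (-1.55) and TPS11 (-1.28) were the other called members, and DIN10 (-0.85) and TPS8 (-0.695) were not called.

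In the circadian clock list LHY had a higher response in cry1cry2 and PRR7, GI and LUX a lower one, of 14 genes (28.6% called, against 18.6% of all genes). LHY (AT1G01060), a morning MYB factor, read 1.49, 0.28 and 0.92 and then -1.105, -1.395 and -1.34 in wild type, and -2.78, -2.597 and -2.66 and then -2.19, -2.43 and -2.36 in cry1cry2. It fell in wild type and was low in both mutant groups, with an interaction of 2.53 (SE 0.34, limma adjusted p = 0.000411). PRR7 (-2.13 (SE 0.32, limma adjusted p = 0.000808)) and GI (-1.84 (SE 0.28, limma adjusted p = 0.000859)), which act later in the cycle, rose in wild type and their mutant groups overlapped. LUX was at -1.06, CCA1 (0.75) and TOC1 (-0.17) were not called, 5 genes were lower without cry1cry2 DMSO array 1 and 2 were higher without wild-type DMSO array 2.

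Of 9 genes of seed storage and oil use 4 had a lower response in cry1cry2, against 5.91% of all genes. The median was -2.22, and it was -4.17 within slides, where wild type on 3B7N is array 1 alone. ICL (AT3G21720), isocitrate lyase of the glyoxylate cycle, read 3.12, 3.64 and 3.08 in wild type with DMSO and 5.94, 6.17 and 5.75 with 3B7N, and 4.37, 5.35 and 4.92 and then 5.504, 5.22 and 5.28 in cry1cry2. Its interaction was -2.22 (SE 0.34, limma adjusted p = 0.000794), and wild type on 3B7N was above every other group. EM1 (-3.82), a late embryogenesis protein, OLEO2 (-3.605), an oil body protein, and MLS (-1.09), malate synthase, were the others. The mean over 6 leftover seed transcripts was -4.05, -0.66 and -4.08 in wild type with DMSO and 0.54, -2.21 and -0.50 on 3B7N. It was -3.04, -0.95 and -1.34 in cry1cry2 on DMSO and -2.21, -1.79 and -2.89 on 3B7N. Wild-type DMSO array 2 stood above wild-type 3B7N array 2 in this measure, whose part in the result was not tested. Without wild-type 3B7N array 1, 2 genes of the list were called.

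Heat shock genes had a median interaction of -4.15 over 20 genes, with 9 lower and 0 higher, against 5.91% and 12.7% of all genes. Their mutant replicates lay far apart. HSFA2 (AT2G26150), a transcription factor of the heat response, read -4.26, -4.07 and -4.17 in wild type with DMSO and 2.86, 3.79 and 2.61 with 3B7N. Its mutant arrays read 0.89, 4.84 and -0.59 on DMSO and -0.47, -0.31 and 3.53 on 3B7N. Wild type rose without overlap, while cry1cry2 DMSO array 2 and cry1cry2 3B7N array 3 were far above the other mutant arrays. The mean of the 20 genes stood at 2.70 on the former and 0.88 on the latter, and at -1.89 to -0.68 on the other 4 mutant arrays. The wild-type arrays averaged -3.35 to -2.95 on DMSO and -0.66 to 0.46 on 3B7N.

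The interaction of HSFA2 was -8.05 (SE 1.77, limma adjusted p = 0.00617). The chaperone HSP101 (-4.98 (SE 1.64, limma adjusted p = 0.0398)) and the co-chaperone BAG6 (-5.54 (SE 1.78, limma adjusted p = 0.0364)) passed with all arrays and lost their calls without any of 8 arrays, cry1cry2 DMSO array 2 among them (-3.58 and -4.11). BAG6 is not a member of the heat shock list and is not in its counts. Small heat shock proteins among the called members were HSP23.6-MITO (-7.62), HSP17.6II (-7.002), HSP17.6A (-6.85) and HSP22.0 (-5.91), beside the chaperone HSP70b (-4.09), and probes of one family may share signal. HSP17.4 and HSP21 were not well above background in wild type on DMSO, and their wild-type rises were at least 12.1-fold and 2.68-fold. Without cry1cry2 3B7N array 3 the count was 15. With the slide block it was 0 at a median of -2.68, and with normexp it was 1, HSFA2 (-7.18, limma adjusted p = 0.0226).

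**Figure D4:**
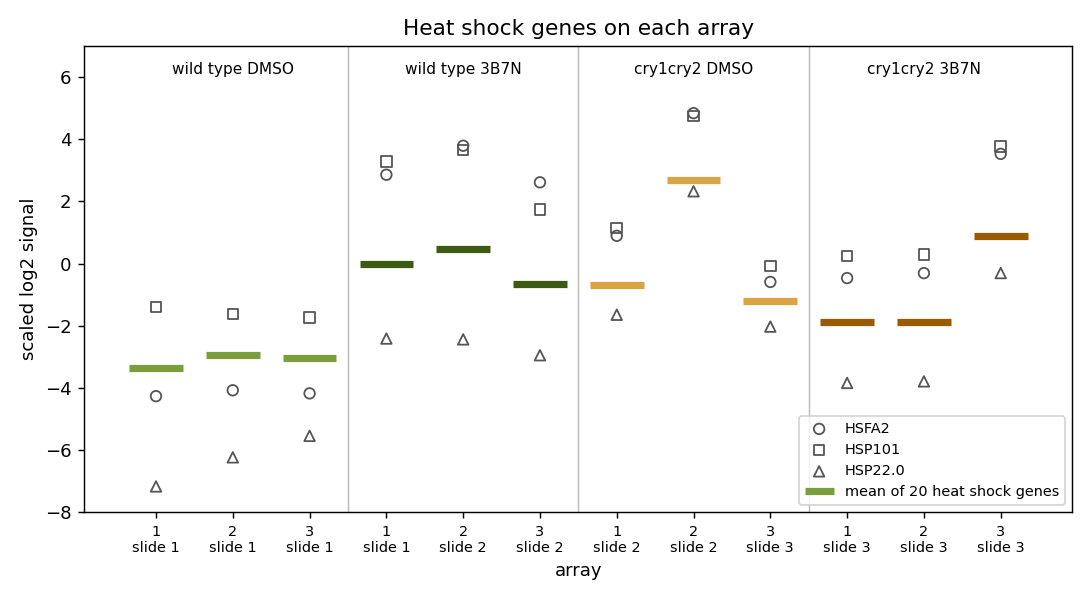
Scaled log2 signal (vertical axis) of HSFA2, HSP101 and HSP22.0 and the mean of 20 heat shock genes (bars) on each of the 12 arrays, with the slide under each array number. The wild-type groups are apart, at -3.35 to -2.95 and -0.66 to 0.46 for the mean, and in cry1cry2 DMSO array 2 and 3B7N array 3 stand above the other 4 arrays.

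Suberin and cutin genes rose with 3B7N in both genotypes, at medians of 1.37 in wild type and 1.33 in cry1cry2. Of 23 genes 15 were called higher in wild type and 12 in cry1cry2, against 5.89% and 2.1% of all genes. Their interaction split, with 7 higher and 4 lower in cry1cry2, against 12.7% and 5.91% of all genes. CYP86A1 (AT5G58860), a fatty acid hydroxylase of suberin synthesis, read -1.2, -1.28 and -1.61 in wild type with DMSO and 0.87, 0.83 and 0.61 with 3B7N. The mutant arrays read -2.24, -2.42 and -2.15 on DMSO and 1.404, 1.5 and 1.36 on 3B7N. The mutant started lower and ended higher than wild type with no overlap, and the interaction was 1.55 (SE 0.202, limma adjusted p = 0.000333). GPAT6 (1.48 (SE 0.29, limma adjusted p = 0.00321)), a cutin acyltransferase, and the transcription factor MYB93 (1.76 (SE 0.29, limma adjusted p = 0.00125)) had the same direction, but with normexp they were at 0.75 and 0.66 and not called. MYB53 (1.501), FAR5 (1.36), ABCG20 (1.07) and ABCG2 (1.05) were the other higher members. Normexp left 1 of the 7, and median scaling gave 5 higher and 5 lower. The list median was -0.037 and within slides 0.36.

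KCS2 (AT1G04220), which elongates fatty acids, went the other way, with -1.47, -1.67 and -1.91 and then 0.55, 0.32 and 0.096 in wild type, and 1.19, 1.13 and 1.45 and then -0.14, 0.72 and 0.25 in cry1cry2. Its interaction was -2.99 (SE 0.305, limma adjusted p = 8.27e-05), from a rise in wild type and a mutant response of -0.98 just under the size threshold. FAR1 (-2.93 (SE 0.42, limma adjusted p = 0.000586)), a fatty acyl reductase, rose in wild type and its mutant groups overlapped. The endodermal barrier genes ESB1 (-1.63) and CASP1 (-1.63), which also stand among the 10 root markers, were lower with all arrays and lost their calls with the slide block (-1.21 and -1.06). Of the other root markers COBL9 (1.19) and EXPA18 (1.37) were higher, 1 of them without cry1cry2 3B7N array 2, and normexp left neither. The summed root marker signal includes ESB1 and CASP1 themselves. Its log2 was 6.53 to 7.05 on the wild-type 3B7N arrays and 6.13 to 6.27 on the wild-type DMSO arrays, while the mutant groups overlapped. The median wild-type response of the 10 markers was -0.044, and the part of the summed signal in these results was not tested.

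Detoxification genes gave 3 higher and 2 lower calls of 28 (17.9%, against 18.6% of all genes), with a median interaction of -0.044 (-0.25 within slides) from median responses of 0.76 in wild type and 0.58 in cry1cry2. UGT73C1 (AT2G36750), a glucosyltransferase of xenobiotics, read -4.299, -4.13 and -4.097 in wild type with DMSO and -3.36, -3.81 and -3.78 with 3B7N, and -7.91, -9.21 and -7.799 and then -4.56, -4.899 and -4.304 in cry1cry2. The gene was called in the mutant response and not in the wild-type response, from a DMSO signal well above background on 1 of 3 arrays, and its interaction was 3.19 (SE 0.45, limma adjusted p = 0.000516) but 0.34 and not called with normexp. UGT73C6 (1.24) and GSTU25 (1.15) were the other higher members. ABCG40, a transporter of abscisic acid, rose in both genotypes from a wild-type DMSO signal at background, and had a lower response in cry1cry2. Its wild-type rise was at least 26.2-fold, and its mutant response was 1.93. CYP81D11 was the other lower member (-1.51). The glutathione transferase GSTU3 rose in both genotypes, from DMSO signals well above background on 0 of 3 wild-type and 1 of 3 mutant arrays. Its wild-type rise was at least 3.63-fold, so no difference between the genotypes is given. With background signals raised to the lowest signal above background, 4 genes of the list were higher.

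In defence and jasmonate PAD3 (1.33), of camalexin synthesis, and PAD4 (1.07) had a higher response in cry1cry2, and the storage proteins VSP1 (-1.901 (SE 0.23, limma adjusted p = 0.000209)) and VSP2 (-1.75), near-identical copies, a lower one, of 13 genes. Calls made up 30.8% of this list, against 18.6% of all genes. PAD3 was at 0.99 without cry1cry2 3B7N array 3, where 0 genes were higher, and 1 gene was higher without any of 7 other arrays. Normexp also left 0 higher and turned the list median from 0.32 to -0.63. PR5, a pathogenesis-related protein, rose in both genotypes (2.93 and 3.98) and had an interaction of 1.04 (SE 0.47, limma adjusted p = 0.117) that was called without wild-type 3B7N array 2 (1.49). Of 14 genes of nitrate assimilation and nitric oxide NIR1 (1.37 (SE 0.24, limma adjusted p = 0.00199)), nitrite reductase, and NOA1 (1.39), a GTPase of chloroplasts, were higher and 0 lower (14.3% higher, against 12.7% of all genes), and 1 to 2 were lower without any of 9 arrays. The nitrate reductases NIA1 (0.09) and NIA2 (0.27) and GSNO reductase HOT5 (-0.48) were not called. None of the 6 housekeeping genes was called with limma, and on the probes used they ranged from -0.73 for PP2AA3 to 0.32 for EF1A. Further probes of UBQ10 gave -1.03 to -0.06, against -0.24 on the one used. At an unadjusted p under 0.05, 5128 genes were higher and 3364 lower in the whole table.

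**Figure D5:**
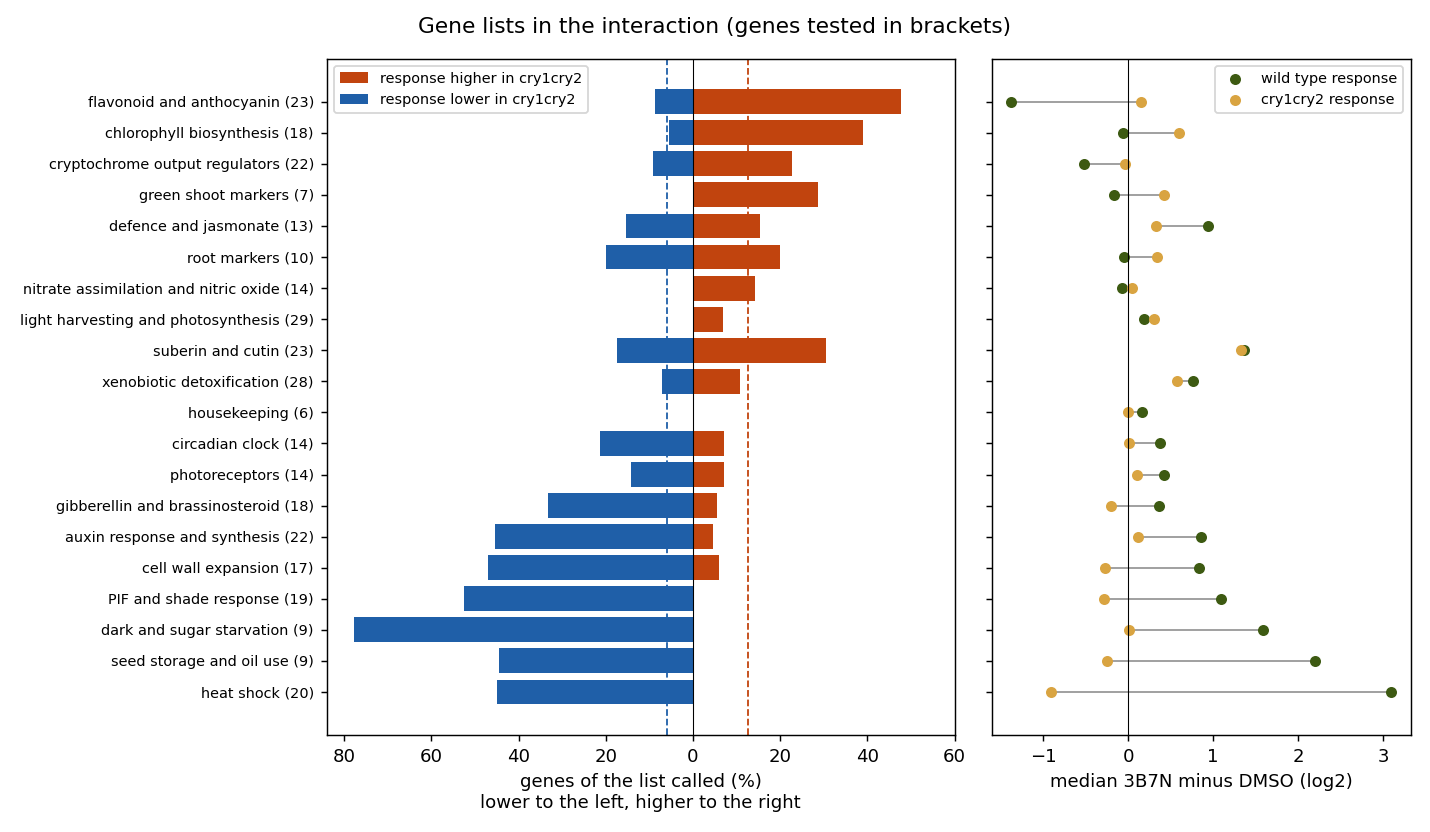
Share of each gene list called in the interaction (left panel, percent, lower response in cry1cry2 to the left and higher to the right, dashed lines at 5.91% and 12.7% for all genes) and the median response of the list in each genotype (right panel, log2). Dark and sugar starvation, PIF and shade response and auxin genes extend to the left, flavonoid and chlorophyll genes to the right, and the wild-type medians lie farther from 0 than the mutant medians for most lists.

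The 8 highest interactions among genes with a symbol and a signal above background on at least 2 arrays of every group ran from 4.14 to 5.24. THI2.2 (AT5G36910), a thionin, read 2.08, 1.93 and 2.24 in wild type with DMSO and -3.26, -1.51 and -2.07 with 3B7N. In cry1cry2 it read -5.22, -4.43 and -5.99 on DMSO and -4.72, -4.297 and -3.99 on 3B7N. It fell in wild type, the mutant groups overlapped far below, and the interaction was 5.24 (SE 0.62, limma adjusted p = 0.000194). TRY (4.44), a small MYB protein that stops trichome formation, and CYP71B36 (4.79), a cytochrome P450, fell in wild type towards dim mutant levels, and neither was called with normexp (2.097 and 1.29). RL4 (4.31 (SE 0.55, limma adjusted p = 0.00031)), a small MYB-related gene, fell in wild type to below its mutant level. BBX32, described above, was the next at 4.23. PP2-B13 (4.22 (SE 1.15, limma adjusted p = 0.0179)), a lectin-like F-box gene, was called in neither genotype alone and lost its call with normexp and the slide block. Its other probes gave 0.753 and 2.895.

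PGLP1, phosphoglycolate phosphatase of photorespiration, read 3.84, 3.45 and 3.77 in wild type with DMSO and -2.695, 1.77 and 1.97 with 3B7N. Array 1 of the treated wild type was thus more than 4 units below the others, and the gene has a near-identical copy. Its interaction of 4.17 (SE 1.29, limma adjusted p = 0.0304) was 2.65 without that array and was not called without any of 9 others, and a further probe of the gene gave 2.66. ARR7 (AT1G19050), a response regulator that damps cytokinin signalling, read -1.37, -1.01 and -1.01 in wild type with DMSO and -4.22, -3.22 and -3.97 with 3B7N. In the mutant it read -3.08, -4.42 and -3.53 on DMSO and -1.996, -2.31 and -2.32 on 3B7N. It fell in wild type and rose in cry1cry2, each without overlap, for an interaction of 4.14 (SE 0.46, limma adjusted p = 0.000126) and 4.41 within slides.

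Among the 8 lowest of this kind, HSFA2, HSP17.6A, HSP22.0, BAG6 and HSP101 belong to the heat response. ENODL1 (AT5G53870), an early nodulin-like protein, read -6.27, -6.63 and -6.63 in wild type with DMSO and 0.11, 0.402 and 0.07 with 3B7N. In the mutant it read -0.91, -0.26 and -1.38 on DMSO and -1.88, -2.09 and -1.66 on 3B7N. It rose in wild type and fell in cry1cry2 without overlap, for an interaction of -7.74 (SE 0.35, limma adjusted p = 5.87e-07), -7.13 within slides. BETA-TIP (AT1G17810), a vacuolar aquaporin of seeds, read -3.53, -2.605 and -3.49 and then 1.22, 0.69 and 0.18 in wild type, and -0.77, 0.26 and -0.67 and then -2.08, -1.56 and -1.697 in cry1cry2, with an interaction of -5.29 (SE 0.49, limma adjusted p = 4.74e-05). UMAMIT36 (AT1G70260), of a family of amino acid transporters, was one of the genes called in the mutant alone. Its wild-type arrays read -6.68, -5.81 and -5.97 on DMSO and -5.63, -6.24 and -4.76 with 3B7N and overlapped, while its mutant arrays went from -2.14, -1.63 and -2.06 on DMSO to -6.702, -5.76 and -6.48 on 3B7N. The interaction was -4.98 (SE 0.52, limma adjusted p = 9.58e-05).

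Of the genes with a symbol and no signal above background in at least 1 group, the highest fitted values were CYP706A6 (5.7), CYP71A22 (5.25), MYB62 (4.902), PAP16 (4.74) and RK2 (4.72). All 5 fell in wild type from signals above background on each DMSO array, and read -11.38 to -6.93 in cry1cry2 on DMSO. All but CYP71A22 were above background on 3 of 3 arrays only in wild type on DMSO. A gene was tested only where at least 1 group met this, so their signal there follows from that filter. None of the 5 was called with normexp, which turned MYB62, a MYB factor of phosphate starvation, to -0.18. The wild-type fall was at least 1.81-fold for MYB62 and at least 7.48-fold for the acid phosphatase PAP16. The lowest were PORA, HSP17.4, WSD1, HSP21 and BGLU28, all dim in wild type on DMSO. WSD1 (AT5G37300), a wax ester synthase, read -8.88, -9.19 and -9.77 there and -3.44, -3.26 and -3.06 in wild type on 3B7N. Its mutant arrays read -0.77, -0.93 and -0.63 on DMSO and -2.78, -2.07 and -1.63 on 3B7N, so that the gene rose in wild type, fell in the mutant. Its wild-type rise was at least 13.4-fold. For the thioglucosidase BGLU28 the wild-type rise was at least 2.62-fold.

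Further genes, chosen after their values were seen, illustrate the rarer classes. Besides ARR7, the genes that fell in wild type and rose in cry1cry2 included CRK40 (-1.96 and 2.105), a receptor-like kinase, TIR (-2.296 and 1.43) and UGT84A1 (-2.16 and 1.52), which glycosylates hydroxycinnamic acids. RAB18 (2.29 and -1.59), a dehydrin induced by abscisic acid, and PRP2 (2.67 and -1.06), a proline-rich wall protein, did the opposite. ELIP2, an early light-induced protein, rose in cry1cry2 (1.695), and its wild-type change of -0.83 was under the size threshold. Its interaction was 2.52 (SE 0.32, limma adjusted p = 0.000267). PPT2, a plastid phosphoenolpyruvate transporter, fell in both, by less in the mutant (-4.57 in wild type and -1.68 in cry1cry2), with an interaction of 2.899 (SE 0.398, limma adjusted p = 0.000455). LAC3 (-1.42) and ABCG1 (-1.63) rose in both, by less in the mutant. Among the 4 genes that fell in both and further in cry1cry2, PAL4 (-1.05) and AT3G53980 (-1.505) were above background in every group. GASA5 and AT2G22942 were not well above background on any array of treated wild type, so no difference is given for them.

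Gene families were also counted by the opening letters of their symbols, a grouping made after the values were seen. Those described here were picked from 217 families of at least 8 genes for their one-sided calls. Their counts are to be read against 12.7% of all genes called higher and 5.91% called lower. Of 11 genes named CRR, most of which are needed for the chloroplast NDH complex or for editing its transcripts, 9 had a higher response in cry1cry2 and 0 a lower one, at a median of 1.98, with 6 under normexp and 6 with the slide block. CRR7 (AT5G39210) read 1.06, 1.399 and 1.34 in wild type with DMSO and -1.22, -1.02 and -0.54 with 3B7N, and -1.41, -1.67 and -1.48 and then 0.32, -0.15 and -0.14 in cry1cry2. It fell in wild type and rose in the mutant without overlap, and its interaction was 3.72 (SE 0.28, limma adjusted p = 1.15e-05). CRR4 (3.52) and CRR22 (2.54), editing factors with pentatricopeptide repeats, followed. Of 12 HCF genes, needed for photosystem assembly and chloroplast RNA processing, 5 were higher, HCF173 (1.72), HCF101 (1.35), HCF152 (1.27), HCF136 (1.2) and HCF244 (1.14), and 5 were counted with normexp and with the slide block too. Of 9 OTP genes 5 and of 13 MEF genes 5 were higher, both mostly organelle RNA editing factors, but normexp left 1 and 0.

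Of 10 IRX genes of secondary walls 6 had a lower response in cry1cry2 (median -1.61), against 5.91% of all genes. Their median responses were 0.36 in wild type and -1.22 in the mutant. IRX1 (AT4G18780), a cellulose synthase of secondary walls, read -0.06, -0.705 and -0.62 in wild type with DMSO and -0.21, 0.01 and -0.04 with 3B7N, and 1.08, 0.87 and 0.79 and then -0.902, 0.46 and -0.94 in cry1cry2. The wild-type groups overlapped and the mutant fell, most on arrays 1 and 3, for an interaction of -1.75 (SE 0.45, limma adjusted p = 0.0141). IRX3 (-1.68), another such cellulose synthase, and IRX6 (-1.86) had interactions close to it, and with the slide block 0 of the 10 were called at a median of -1.56. Of 13 SAUR genes, small auxin-induced growth genes, 7 were lower (median -1.22), led by SAUR15 (-2.43) and SAUR19 (-2.42), with 6 under normexp and 4 with the slide block. Probes of SAUR19 to SAUR23 may share signal. Of 8 RD genes, named for their response to drying, 5 were lower, led by RD20 (-2.73) and RD22 (-1.898), with 4 under normexp and 3 with the slide block.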

How the data were processed

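Cy3-labelled RNA of 12 seedling samples was hybridised to one-colour Agilent arrays, and per the file headers Agilent Feature Extraction 10.7.3.1 gave each of 45220 spots an intensity (the processed signal, with background subtracted) and flags, as deposited by the authors. From these intensities, 43803 noncontrol spots were averaged into 43603 probes, and log2 values were set relative to the 75th percentile of each array. Leaving out 49 probes flagged as outliers, 32759 probes were well above background on 3 of 3 arrays of at least 1 group. The 28504 of them with a locus were kept, and the brightest stood for its locus, which left 20487 genes. Loci were found by matching the transcript accession of each probe in the array files to the RefSeq gene table of TAIR10.1. Symbols come from the same table or, for list members, from the lists. Of the 43603 probes, 9255 matched no locus and were left out. The arrays were built on TAIR10, so no coordinates are printed. Of 343 list entries in 20 lists (338 loci), 12 symbols were matched by locus and 2 entries were not on the array.

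limma 3.58.1 in R 4.3.3 fitted 4 group means over 12 arrays (8 residual degrees of freedom) with Benjamini-Hochberg adjustment over all genes, two-sided, and a call needed an adjusted p under 0.05 and a log2 difference of at least 1. Named genes were the 8 highest and 8 lowest calls with a symbol above background on at least 2 arrays of every group, the 5 highest and 5 lowest that were dim in at least 1, the called genes of every list ranked by adjusted p down to rank 3, a set of light, suberin and heat genes with the housekeeping genes, and every gene behind a list or class count of the main fit that did not exceed 5. The family counts do not follow this last rule. The members and lists were chosen with earlier results of these data known. On simulated data with 20487 genes, 65.2% of interactions of 1.5, 88.1% of 2 and 94% of 3 on the log2 scale were recovered, with 7 false calls. The simulation gave each gene 1 mean in all groups, independent noise, and planted interactions in 66 to 67 genes of each size. It held no slide, array or background effects, so its false calls do not measure those among the real calls. Alternatives were median and quantile scaling, normexp with an offset of 50, other filters, slide and replicate blocks, array weights, mean probes and leaving out each array. Arrays have no read depth, and precision is limited by their number. The replicate numbers are not stated to pair arrays: same-numbered deviations correlated at -0.325 to 0.358, and 6 of 12 arrays correlated best with their own number. A planned search of promoters was not run, since no promoter sequences were used here.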

Additional observations from a re-analysis of the deposited data

Results flagged for a closer look

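The interaction is itself a test of whether the effect of 3B7N differs between wild type and cry1cry2, so its calls are listed here. With limma, 2602 genes had a higher and 1211 a lower response in cry1cry2. The genes that follow are the extremes among those with a symbol, which 1021 of the higher and 629 of the lower calls had. The highest with signals above background on at least 2 arrays of every group were THI2.2 (5.24), CYP71B36 (4.79), TRY (4.44), RL4 (4.31), BBX32 (4.23), PP2-B13 (4.22), PGLP1 (4.17) and ARR7 (4.14). The lowest were HSFA2 (-8.05), ENODL1 (-7.74), HSP17.6A (-6.85), HSP22.0 (-5.91), BAG6 (-5.54), BETA-TIP (-5.29), UMAMIT36 (-4.98) and HSP101 (-4.98). With at least 1 group at background, the fitted values were CYP706A6 (5.7), CYP71A22 (5.25), MYB62 (4.902), PAP16 (4.74), RK2 (4.72), PORA (-9.48), HSP17.4 (-7.72), WSD1 (-7.41), HSP21 (-6.16) and BGLU28 (-4.76), and these are not bounds.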

How the results depend on the processing

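The counts of 2602 and 1211 stayed within 1.5 times of themselves under the alternatives run, except for 1169 higher genes with normexp. Leaving out each array in turn gave 2320 to 2725 higher and 1013 to 1253 lower. The replicate block gave 2575 and 1184 and the slide block 1938 and 914. Without both wild-type 3B7N array 2 and cry1cry2 DMSO array 1, the dimmest and brightest arrays, a choice made after seeing the data, the counts were 2431 and 1234. The same sign and call held under all of 9 alternatives for 714 higher and 496 lower genes. Of 80 named calls, 56 were kept with normexp, 61 with the slide block, 78 with the replicate block and 72 without every array in turn. Signs changed for genes that were not called, apart from MYB62 (-0.18 with normexp). With normexp CRY1 was at -0.78 and PR5 at -0.18. With the slide block CRY1 was at -0.091, HY5 at -0.28, TIP41 at -0.38 and UBQ10 at 0.03. TIP41 was at -0.033 with median scaling, -0.066 without the dimmest and brightest arrays and -0.004 to 0.25 with each array left out. UBQ10 was at 0.27 with array weights and -0.61 to 0.14 with each array left out (0.09 without cry1cry2 DMSO array 2), and GAPC2 at -0.077 to 0.43. CRY1 was at -0.19 with background signals raised and EF1A at -0.042 with mean probes. The cause of these changes was not tested. In the dimmest bin of 4, normexp gave 20 higher and 142 lower calls, against 1044 and 355 with the processed signal. The median interaction of that bin changed sign, and the cause was not tested. Of the 2602, 2381 were above background on at least 2 arrays of every group. Slide and genotype overlap in part: each genotype had 1 slide with both treatments.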
